A study of Mus musculus with 4 samples.

Results

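The genes described are 10 genes of the circadian clock: Clock, Arntl, Per1, Per2, Per3, Cry1, Cry2, Nr1d1, Nr1d2 and Dbp. They were chosen by name, as the probes whose gene name on the array equals one of these symbols, out of 31806 gene names and 39397 probes in all. They had 13 probes, with 2 probes each for Cry2, Nr1d2 and Dbp and 1 for each of the other 7 genes, and all 13 were well above background on all 4 arrays.

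RNA of mouse embryonic fibroblasts (MEFs), the fibroblast-rich cells grown out of dissociated embryos, was hybridised to 4 single-colour Agilent whole-genome arrays, 1 array for each group. The groups were CycG2-/- MEFs (G2KO), their CycG2+/+ control (G2WT), CycG1-/-CycG2-/- MEFs (DKO) and their CycG1+/+CycG2+/+ control (G1G2WT), where CycG1 and CycG2 are cyclin G1 and cyclin G2, encoded by Ccng1 and Ccng2. All 4 cultures came from C57BL/6J mice and were growing logarithmically in medium with heat-inactivated serum, and the alleles were germline deletions present in every cell of the embryo. With 1 array for each group no test between groups was possible, and none of the differences below has a replicate check. The sources do not give the hour at which the cells were harvested, so an altered level and a shifted phase of a rhythm cannot be told apart, and in cultured cells of mixed type less RNA per cell cannot be told apart from fewer cells of a type.

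The labels were checked first. Ccng1 had a signal of 1.66 times the 75th percentile of its array in G1G2WT and was not well above background in DKO, at least 228-fold lower, whereas the Ccng2 probe read between 0.0619 and 0.104 on all 4 arrays and did not set the knockout arrays apart from the controls. Xist, the transcript of the inactive X chromosome, was well above background on the G2WT array alone, although the study describes its G2KO MEFs as the female ones, and the Y-linked genes Ddx3y and Eif2s3y were not well above background on that array alone. Log2 ratios of the array labelled G2KO scattered less around G1G2WT (SD 0.535 over the probes detected throughout, that is, well above background on every array) than around its own control (SD 0.859), while DKO and G1G2WT differed with an SD of 1.02 and both controls with one of 1.01. The study also lists Sox2 as raised and Pdgfra as reduced in G2KO MEFs against wild type. It describes dye-swapped experiments for that comparison, whereas these arrays are single-colour, so its list may come from other arrays. Here Sox2 read 2.37 in G2WT and 0.00199, not well above background, in G2KO. Pdgfra read 1.75 in G2KO and 0.00223, again not well above background, in G2WT. The labels of the G2KO comparison were therefore not borne out by the data, and its arrays are called the arrays labelled G2KO and G2WT. The fibroblast genes Col1a1, Col1a2 and Vim were high on all 4 arrays. On the array labelled G2WT, however, Pdgfra and Lum were not well above background and Thy1 was low. Of the 10 fibroblast genes searched, 5 were at least 2-fold lower in DKO than in G1G2WT and 1, Dcn, was higher. Among the lower ones, Pdgfra read 0.0296 in DKO and 5.22 in G1G2WT, and Postn 0.116 and 21.6.

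The circadian clock is a feedback loop of transcription present in most cells, fibroblasts included. CLOCK and BMAL1, the product of Arntl, bind E-box sequences as a pair and switch on the Per and Cry genes, whose proteins then inhibit that pair. The same pair switches on Nr1d1 and Nr1d2, which encode the REV-ERB repressors of Arntl, and Dbp, which encodes an activator that binds D-box sequences and drives further rhythmic genes. Cultured fibroblasts keep individual rhythms that drift apart unless serum, glucocorticoids or another signal brings them into step, so a culture read at a single time gives an average over cells.

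Promoter windows running from 250 bases before to 50 bases after each annotated start site were available from RefSeq for 9 of the 10 genes. Those of Per1, Cry1 and Nr1d1 are printed below with that of Ciart, a further repressor of the loop. They were picked because each holds an E-box or a sequence like it, while their genes differed in opposite directions on the DKO array. Per1 was higher there than in G1G2WT, though by less than 2-fold, and the other genes were lower. All coordinates are of build GRCm38.p6, the sequences read 5′ to 3′ along the gene, and capitals mark the E-box (CACGTG) or the E-box-like sequence (CACGTT, or AACGTG when read from the opposite strand).
Per1, chr11:69098759-69098838, plus strand, bases -190 to -111 from the start site: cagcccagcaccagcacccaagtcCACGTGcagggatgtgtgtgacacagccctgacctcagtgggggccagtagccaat
Cry1, chr10:85185065-85185154, minus strand, bases -100 to -11: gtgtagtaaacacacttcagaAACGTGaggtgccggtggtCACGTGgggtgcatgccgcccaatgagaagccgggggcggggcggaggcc
Nr1d1, chr11:98775383-98775457, minus strand, bases -80 to -6: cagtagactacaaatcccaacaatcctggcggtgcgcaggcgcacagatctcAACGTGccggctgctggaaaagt
Ciart, chr3:95882249-95882358, minus strand, bases -130 to -21: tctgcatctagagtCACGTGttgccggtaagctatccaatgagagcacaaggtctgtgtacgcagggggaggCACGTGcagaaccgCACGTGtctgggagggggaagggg

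Both strands of all 32851 windows were searched. The E-box was in 7.15% of windows and the E-box-like sequence in 4.68%. The D-box (TTANGTAA) was in 2.32%, and the half-site bound by REV-ERB and ROR proteins (AGGTCA) in 16.3%. Per1 held its E-box at -166 from the start site and a half-site at -137, Cry1 held an E-box at -60 and an E-box-like sequence at -79, and Nr1d1 held an E-box-like sequence at -28. Cry2 held an E-box-like sequence at -166, Per3 held D-boxes at -205 and -158, and Ciart held E-boxes at -116, -58 and -44. Half-sites lay at -77 in Nr1d2, at -119 in one window of Clock and at 31 bases after a start site of Arntl. The window of Dbp held no match to any of these sequences. These are matches of letters and were not measured as bound sites.

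DKO was set against G1G2WT to ask what loss of both cyclins goes with. Of the 10 clock genes, Nr1d1, Arntl, Dbp, Cry1 and Clock had signals at least 2-fold lower in DKO, and none was at least 2-fold higher. Among the 28378 probes compared, 20.3% were past 2-fold, 9.73% in the lower and 10.6% in the higher direction. The median log2 ratio was -0.89 over the 10 genes and 0.02 over all probes compared, and 9 of the 10 ratios were below 0. Per1 was the exception, with a ratio above 0. The error given with each log2 ratio below is the spot error that the scanner software assigned, which covers the technical error of the spots and not the variation between cultures.

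The activators were lowest in DKO. Arntl, which encodes BMAL1 (mm9 chr7:120457261-120457320, plus strand), had a signal over the array's 75th percentile of 0.475 in DKO, 1.49 in G1G2WT, 2.34 in the array labelled G2WT and 2.17 in that labelled G2KO. DKO thus lay 3.14-fold below the next lowest array, a log2 ratio of -1.65 with a spot error of 0.20 against G1G2WT, while the other arrays spanned 1.57-fold. Clock, which encodes the partner of BMAL1 (chr5:76641377-76641436, minus strand), had signals of 0.546 in DKO, 1.12 in G1G2WT, 1.01 in G2WT and 1.25 in the array labelled G2KO. DKO was again the lowest, by a log2 ratio of -1.04 (spot error 0.20) against G1G2WT and of -0.89 against G2WT, so that the 2-fold threshold was passed against one control and not the other. The Clock ratio was also just short of 2-fold under quantile normalization (-1.0) and with another background correction, normexp (-0.97).

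**Figure D1:**
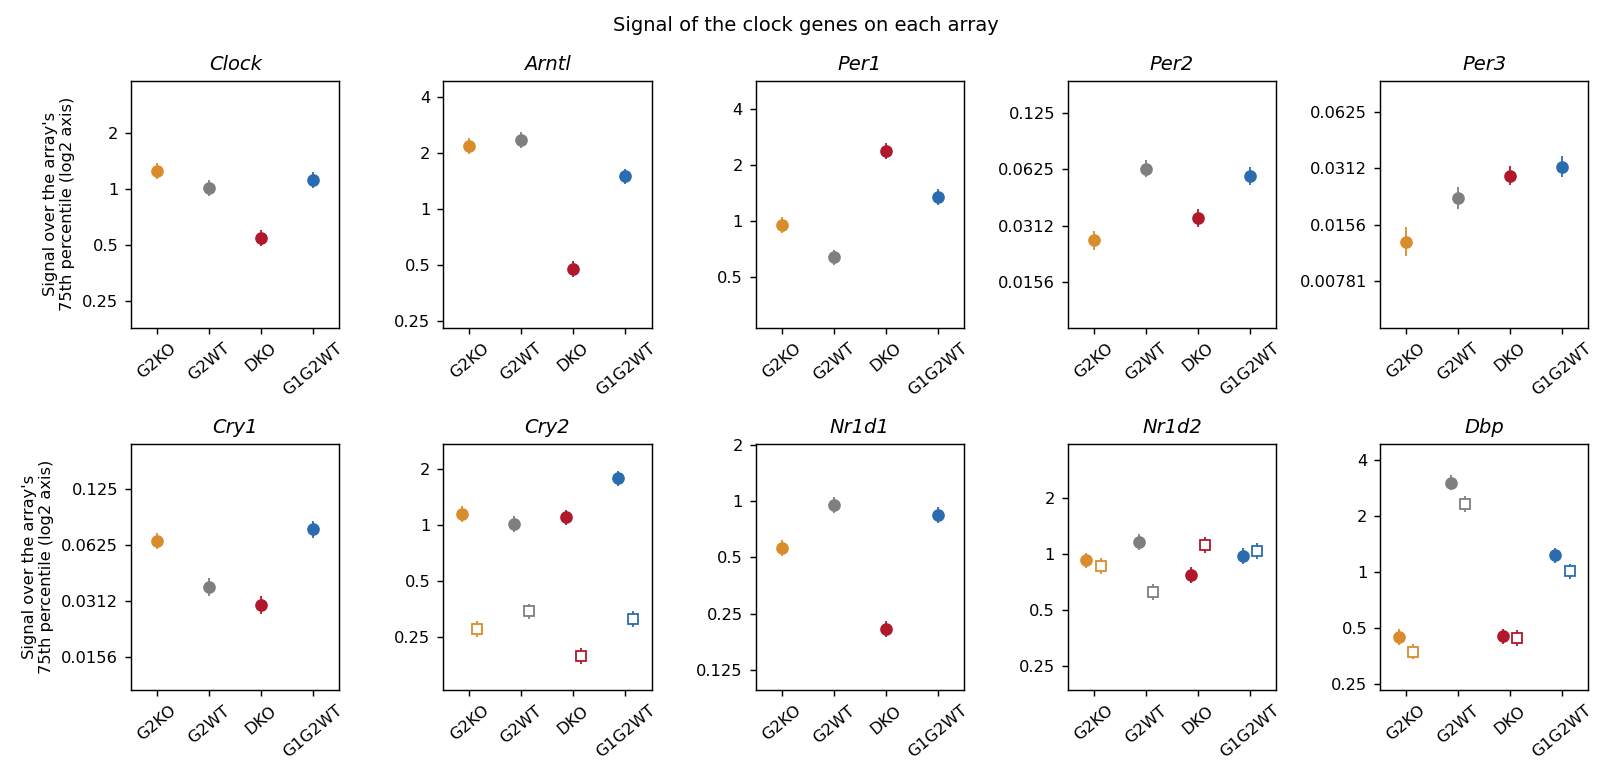
Each panel plots 1 clock gene, with the 4 arrays on the horizontal axis and the signal divided by the array's 75th percentile on a log2 axis that spans the same number of doublings in every panel. Points are single arrays with the spot error as bars, and open squares are the other probe of Cry2, Nr1d2 and Dbp; DKO lies lowest for Arntl and Nr1d1, and the array labelled G2WT lies highest for Dbp.

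Among the Period genes, which encode partners of the CRY proteins in the repressor complex, Per1 went the opposite way to the activators. Per1 (chr11:68923364-68923423, plus strand) had signals of 2.36 in DKO, 1.34 in G1G2WT, 0.636 in G2WT and 0.951 in the array labelled G2KO. DKO was the highest array, at log2 ratios of 0.82 (spot error 0.20) over G1G2WT and 1.89 over G2WT, but G1G2WT and G2WT themselves stood 2.10-fold apart. The step from DKO to the next array, 1.76-fold, was thus smaller than that between G1G2WT and G2WT.

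Per2 (chr1:93313046-93313105, minus strand) was dim throughout, with signals of 0.0344 in DKO, 0.0579 in G1G2WT, 0.0632 in G2WT and 0.0261 in the array labelled G2KO. DKO and the array labelled G2KO were the lower pair, so the arrays labelled as knockouts lay below those labelled as controls, an order that would not hold if the labels G2KO and G2WT were exchanged. The log2 ratio of DKO to G1G2WT was -0.75 (spot error 0.23). Per3 (chr4:150379256-150379315, minus strand) read 0.0286 in DKO, 0.0319 in G1G2WT, 0.0217 in G2WT and 0.0126 in the array labelled G2KO. These were only 1.91 to 3.92 times the lowest signal called well above background, and the ratio of DKO to G1G2WT, -0.15, was within its spot error of 0.26.

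The Cryptochrome genes encode the stronger repressors of the loop. Cry1 (chr10:84594731-84594790, minus strand) had signals of 0.0300 in DKO, 0.0761 in G1G2WT, 0.0374 in G2WT and 0.0659 in the array labelled G2KO. DKO and G2WT were low and the other arrays high, so the log2 ratio was -1.34 (spot error 0.22) against G1G2WT but -0.31 against G2WT, and G1G2WT and G2WT differed by 1.03. The first of these was -0.66 under normexp. Cry2 read 1.1, 1.78, 1.01 and 1.15 in the same order with its brighter probe (chr2:92243807-92243866, minus strand) and 0.199, 0.314, 0.344 and 0.276 with the other (chr2:92251417-92251476). Both Cry2 probes were lower in DKO than in G1G2WT, by log2 ratios of -0.69 and -0.66, and stayed within 2-fold in every pair of arrays named here.

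In the loop that feeds back on Arntl, Nr1d1 and Nr1d2 differed from each other. Nr1d1, which encodes REV-ERBα (its probe spans chr11:98630526-98631028, minus strand), had signals of 0.206 in DKO, 0.846 in G1G2WT, 0.958 in G2WT and 0.563 in the array labelled G2KO. DKO lay 2.73-fold below the next lowest array, and its log2 ratio was -2.04 (spot error 0.20) to G1G2WT and -2.22 to G2WT, while G1G2WT and G2WT differed by -0.18. For Nr1d2, which encodes REV-ERBβ, the brighter probe (chr14:19037253-19037312, minus strand) read 0.772, 0.977, 1.16 and 0.927 in that order and the other (chr14:19036568-19036627) read 1.12, 1.04, 0.629 and 0.862. The Nr1d2 probes disagreed in direction, with log2 ratios of -0.34 and 0.11 for DKO to G1G2WT, and neither passed 2-fold.

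Arntl and Nr1d1, an activator and the repressor of that activator, were therefore both lowest in DKO. Of the 10 genes, these 2 set the DKO array at least 2-fold below all of the other 3 arrays, and 3 did so with scaling to the median. The criterion was chosen after the values were seen, and 3.35% of the 24197 probes detected throughout met it. It was not particular to Arntl and Nr1d1: Ciart, Hlf and Noct of the wider list described below met it too. The DKO signals of Ciart and Hlf lay near the lowest signal called well above background.

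Dbp, the output activator that CLOCK and BMAL1 switch on, had the widest range of the 10 genes. Its brighter probe (chr7:52965322-52965381, plus strand) read 0.452 in DKO, 1.23 in G1G2WT, 3.03 in G2WT and 0.450 in the array labelled G2KO. The other probe (chr7:52965461-52965520) read 0.444, 1.01, 2.32 and 0.375. Both probes thus gave the same order of levels, with DKO and the array labelled G2KO low and close together and G1G2WT 2.46-fold and 2.30-fold below G2WT. With the labels G2KO and G2WT exchanged, the highest array would be a knockout and 1 of the low ones a control. The array labelled G2WT was at least 2-fold above all of the other 3 for Dbp, as it was for Bhlhe41 and Wee1 of the wider list, a position held by 2.4% of the probes detected throughout. The log2 ratio of DKO to G1G2WT was -1.44 (spot error 0.20) with the brighter probe and -1.18 with the other. Against G2WT it was -2.74 and -2.38.

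The array labelled G2KO was set against G2WT to ask the same of cyclin G2 alone. Here 2 of the 10 clock genes, Dbp and Per2, were lower by 2-fold or more and none was higher by as much, where 16.9% of 28273 probes were past 2-fold, 8.24% in the lower and 8.63% in the higher direction. Dbp differed by a log2 ratio of -2.75 (spot error 0.20), the widest of the 10, and Per2 by -1.28 (spot error 0.23). Against G1G2WT, 3 of the 10 genes were at least 2-fold lower on the same array, Dbp at -1.45, Per3 at -1.34 and Per2 at -1.15, where 8.93% of probes were past 2-fold, 4.82% lower and 4.11% higher. The Dbp ratio to G2WT stayed past 2-fold under every scaling, background, filter and probe choice tried, whereas Per2 was within 2-fold of G2WT without scaling (-0.78) and under normexp (-0.83).

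The other clock genes on the array labelled G2KO were within 2-fold of G2WT. Arntl stood at a log2 ratio of -0.11 and Clock at 0.31, so the low activators of DKO had no counterpart of that size on this array. Nr1d1 stood at -0.77, Per3 at -0.79, Per1 at 0.58 and Cry1 at 0.82. The signs of Per1 and Cry1 turned against G1G2WT, to -0.49 and -0.21. The median over the 10 genes was -0.22, beside -0.16 over all probes. If the labels of this pair were exchanged, every sign in this comparison would turn, and Dbp and Per2 would be higher in the knockout. Xist, Sox2 and Pdgfra would then have the directions that the study lists, possibly from other arrays, for G2KO MEFs. Whether the labels were exchanged was not tested.

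The arrays labelled as controls gave the only available measure of the difference between cultures labelled as wild type. These arrays also differed in Xist, Ddx3y and Eif2s3y, so every ratio to G2WT crossed a difference in sex as well. Between G1G2WT and G2WT, 3 of the 10 clock genes differed at least 2-fold, where 21.7% of 27466 probes did, 11.8% being higher and 9.9% lower in G1G2WT. Per1 and Cry1 were higher in G1G2WT, at log2 ratios of 1.07 and 1.03, and Dbp was lower, at -1.30. Arntl differed by -0.65, Clock by 0.15 and Nr1d1 by -0.18. The DKO ratios of Arntl, Nr1d1 and Clock were larger than these differences, that of Dbp was about as large, and those of Per1 and Cry1 were of the same order. If the labels G2KO and G2WT were exchanged, this would be a wild type against a knockout, and the control pair would be the array labelled G2KO and G1G2WT. In that pair Arntl differed by 0.54, Clock by 0.16, Nr1d1 by -0.59, Per1 by -0.49, Cry1 by -0.21 and Dbp by -1.45. The DKO ratios of Arntl, Nr1d1 and Clock were larger than the difference under either reading. The Dbp ratio was larger under neither by more than its spot error. That of Per1 was larger only under the exchanged labels, and that of Cry1 was well above the difference only under them. Each of these differences is a single value and measures no spread. Over the probes detected throughout, the SD was 1.01 between G1G2WT and G2WT. Between the array labelled G2KO and G1G2WT it was 0.535. With G2WT as its control, DKO had 4 clock genes past 2-fold, of which Arntl, Nr1d1 and Dbp were lower and Per1 was higher, where 26.0% of probes were past 2-fold, 12.0% lower and 14.0% higher. Both comparisons share the DKO array.

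**Figure D2:**
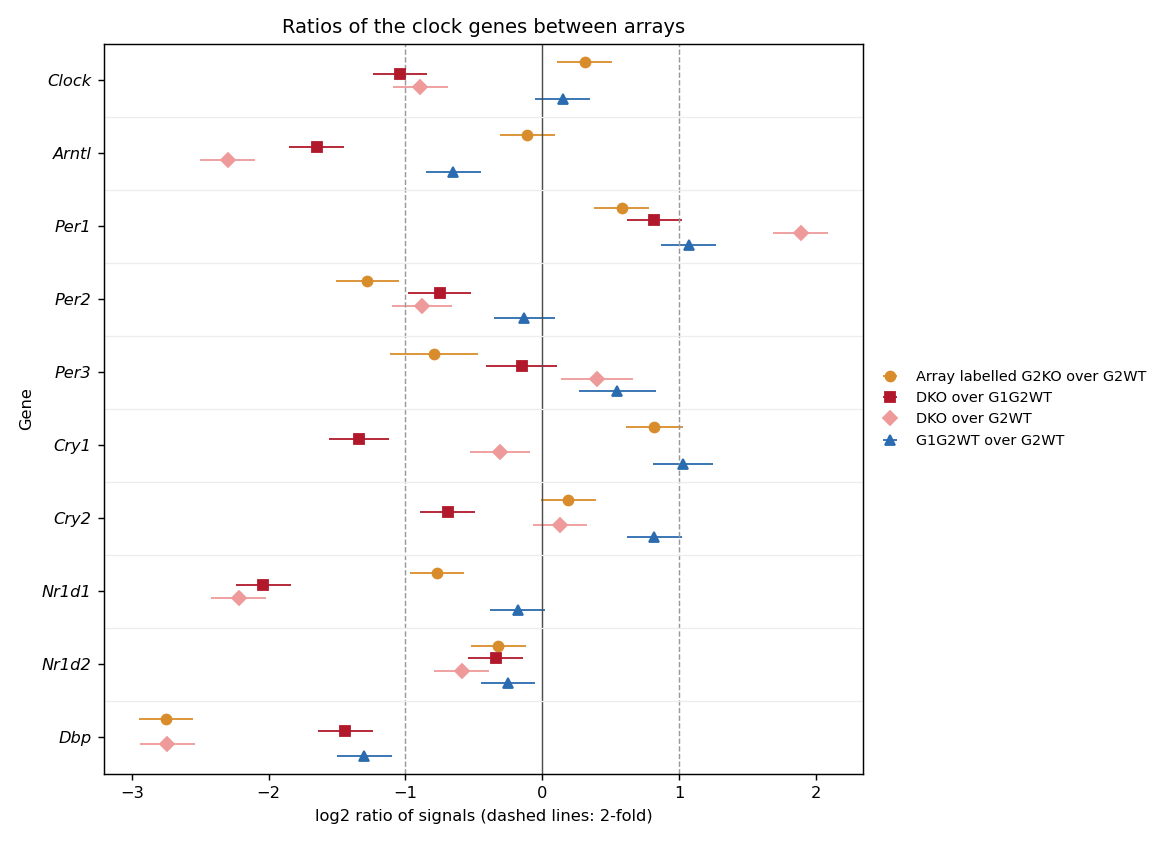
Log2 ratios of the 10 clock genes (brighter probe) on the horizontal axis, with the spot error as bars and dashed lines at 2-fold. Arntl, Nr1d1 and Dbp lie left of the 2-fold line in DKO against both G1G2WT and G2WT, and Cry1 and Clock against G1G2WT alone. Per1 lies to the right of 0 in all 4 comparisons shown.

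The genes whose pattern over the 4 arrays was nearest to that of Dbp were Npnt, Myo7a, Epas1, Ccdc37 and AI605517, at distances of 0.372, 0.517, 0.543, 0.544 and 0.584 in centred log2 signal. The other probe of Dbp lay at 0.263, with no probe of another gene nearer. Npnt, which encodes the matrix protein nephronectin, read 0.0533 in DKO, 0.183 in G1G2WT, 0.438 in G2WT and 0.0496 in the array labelled G2KO. Npnt was picked for this likeness, so the array labelled G2WT was again the highest, and DKO and the array labelled G2KO were low.

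A wider list of 23 clock genes was searched, of which 22 had a probe. In DKO against G1G2WT, 20 gave a ratio, of which 1 was at least 2-fold higher and 5 were at least 2-fold lower. Of all probes, 20.3% were past 2-fold, 10.6% higher and 9.73% lower. The median log2 ratio was -0.40. The 5 lower genes were Ciart (Gm129 on the array), which represses CLOCK and BMAL1, at -2.94, Noct (Ccrn4l), a rhythmic phosphatase gene, at -2.43, Usp2, which encodes a deubiquitinase, at -1.83, Hlf, a relative of Dbp, at -1.76, and Rora, an activator of Arntl, at -1.70. Arntl2, a paralogue of Arntl, was the higher one, at 1.32, while Npas2, the paralogue of Clock, was not well above background on any array.

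Set against G2WT instead, 9 of 21 genes were at least 2-fold lower in DKO and 1 was higher. Of all probes, 26.0% were past 2-fold, 12.0% lower and 14.0% higher. Ciart (-3.23), Noct (-2.35) and Hlf (-1.51) were lower against this array too. Wee1 (-1.81), Bhlhe40 (-1.59), Nampt (-1.44), Bhlhe41 (-1.20), Rorb (-1.06) and Csnk1e (-1.06) were lower against G2WT and within 2-fold of G1G2WT. Rora stood at 0.45, Arntl2 at -0.20 and Usp2 at 1.21 in that comparison, so their sign or call depended on the array chosen as control. Ciart carries 3 E-boxes in the promoter printed above, but its DKO signal was only 1.91 times the lowest signal called well above background. For Hlf the DKO signal was only 2.2 times that lowest signal. The kinases and ubiquitin ligase subunits Csnk1d, Csnk1e, Gsk3b, Btrc and Fbxw11, which set the stability of PER and CRY proteins, stayed within 2-fold in DKO against G1G2WT, but both probes of Csnk1e were past it against G2WT, at -1.06 and -1.40. Tef, the remaining relative of Dbp on the list, stood at 0.00.

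On the array labelled G2KO, 20 genes of the wider list gave a ratio to G2WT, of which 2 were at least 2-fold higher, Usp2 (2.89) and Rora (2.16), and 4 at least 2-fold lower, Bhlhe41 (-1.92), Arntl2 (-1.53), Ciart (-1.31) and Wee1 (-1.1). Bhlhe41 encodes a repressor that binds E-boxes. Its signal on the array labelled G2KO was only 2.82 times the lowest signal called well above background. Wee1 encodes a kinase that holds back mitosis and is switched by the clock in liver. These 6 of 20 stand beside 16.9% of all probes past 2-fold. Against G1G2WT, 1 of 19 was past 2-fold on the same array, beside 8.93% of all probes.

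**Figure D3:**
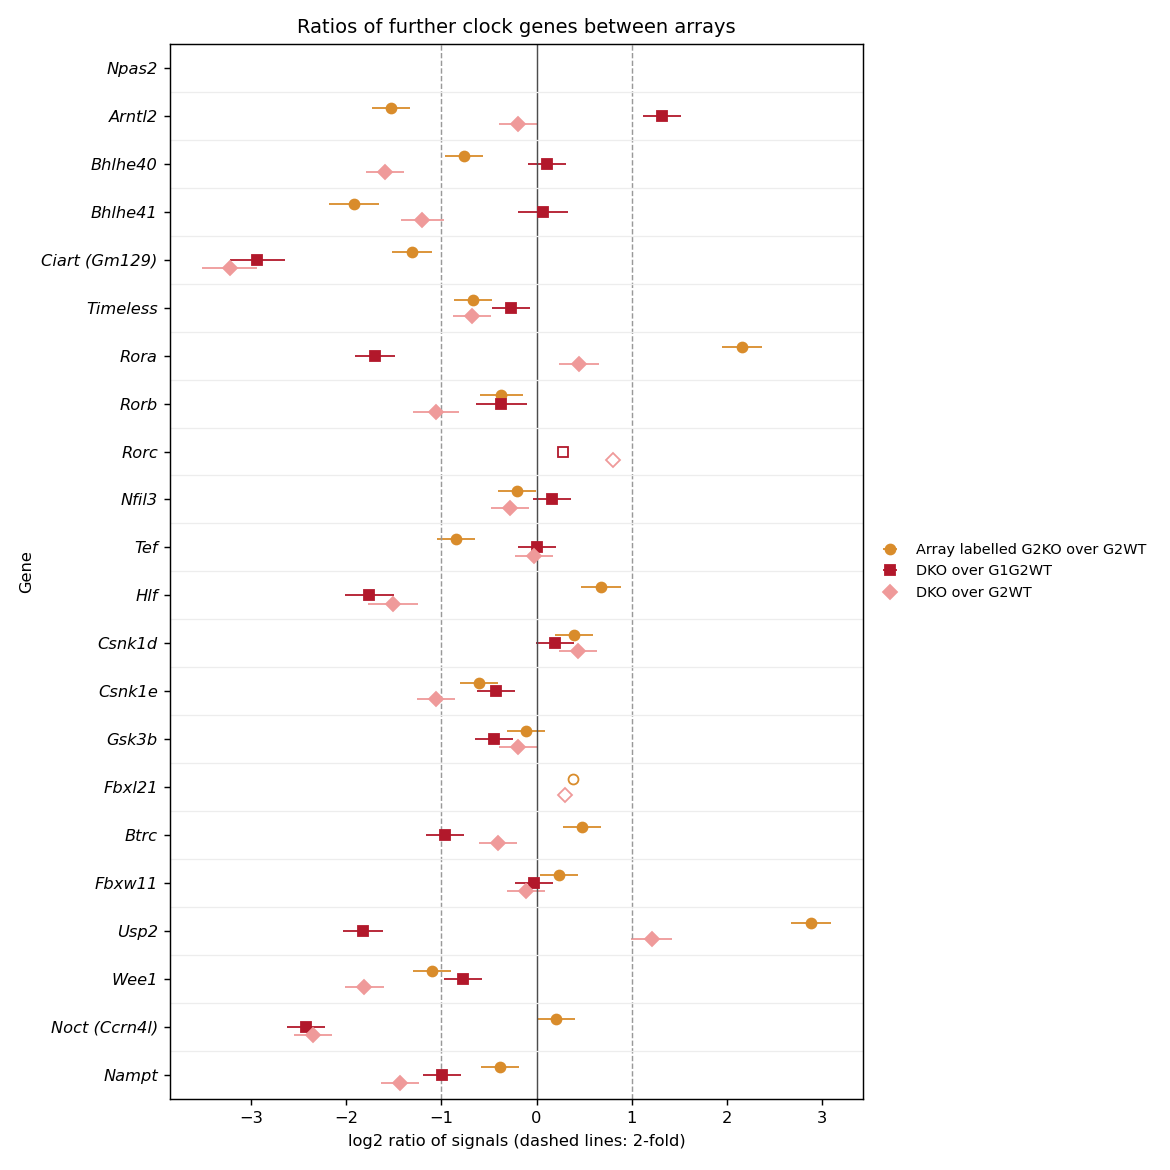
Log2 ratios of 22 further clock genes on the horizontal axis, grouped by role from activators to outputs, with the spot error as bars, dashed lines at 2-fold and open symbols, without bars, for bounds where 1 of both arrays was not well above background. Ciart, Hlf and Noct lie left of the 2-fold line in DKO against both G1G2WT and G2WT. Of the genes past 2-fold against G1G2WT, Rora, Usp2 and Arntl2 differ in sign between these comparisons. Npas2 has no ratio.

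Other gene lists moved with the same arrays, and their part in the clock gene values was not tested. In DKO all 8 mesothelial genes searched, such as Wt1, Msln and Upk3b, were at least 2-fold higher than in G1G2WT, and their summed signal was 146 in DKO and 0.585 to 1.58 on the other arrays. The defining markers Wt1, Upk3b and Upk1b were not well above background outside DKO. Of the 10 fibroblast genes, 5 were at least 2-fold lower and 1 higher in DKO, at a median log2 ratio of -1.17, beside the 20.3% of all probes past 2-fold. The higher one was Dcn, at 49.0 in DKO and 2.95 in G1G2WT. Against G2WT the direction turned, with 5 higher and 2 lower at a median of 1.35, beside 26.0% of all probes. Hence the DKO array differed from G1G2WT in its cell type markers as well as in Arntl, Nr1d1, Dbp, Cry1 and Clock.

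The signals known to set fibroblast clocks were read through lists of their target genes. The summed signal of 8 serum-responsive immediate early genes was 6.71 in DKO, 11.4 in G1G2WT, 23.0 in G2WT and 26.0 in the array labelled G2KO. Here 2 of the 8, Egr2 and Dusp1, were at least 2-fold lower in DKO than in G1G2WT, and none was as much higher. This share was near the 20.3% of all probes past 2-fold in either direction, with 9.73% in the lower direction. Another 2 of the 8, Junb (0.152 and 0.0939) and Egr1 (1.86 and 1.74), had higher signals in DKO than in G1G2WT. The summed signal of 5 glucocorticoid-responsive genes was 10.1, 19.8, 18.0 and 24.2 in the same order. Sgk1 gave the largest part of each sum, at 6.33, 11.1, 11.6 and 16.7. Only Tsc22d3 of the 5 was at least 2-fold lower in DKO than in G1G2WT, and none was as much higher. This share was near the 20.3% of all probes past 2-fold in either direction. Zbtb16 went the other way, near the lowest signal called well above background. DKO had the lowest sum on both lists.

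The array labelled G2WT, on which Dbp was highest, also stood apart. Its summed signal of 8 proliferation genes was 105, beside 57.6 in the array labelled G2KO, 27.1 in DKO and 31.3 in G1G2WT. Its neural progenitor genes summed to 30.5, beside 1.28 to 2.12 on the other arrays. Nes alone gave 28.0 of that sum and Sox2 gave 2.37. The list did not move as a whole: Sox1 was lowest on this array, at 0.105, and Pax6 was not well above background on it. Macrophage genes summed to at most 0.771 on any array.

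**Figure D4:**
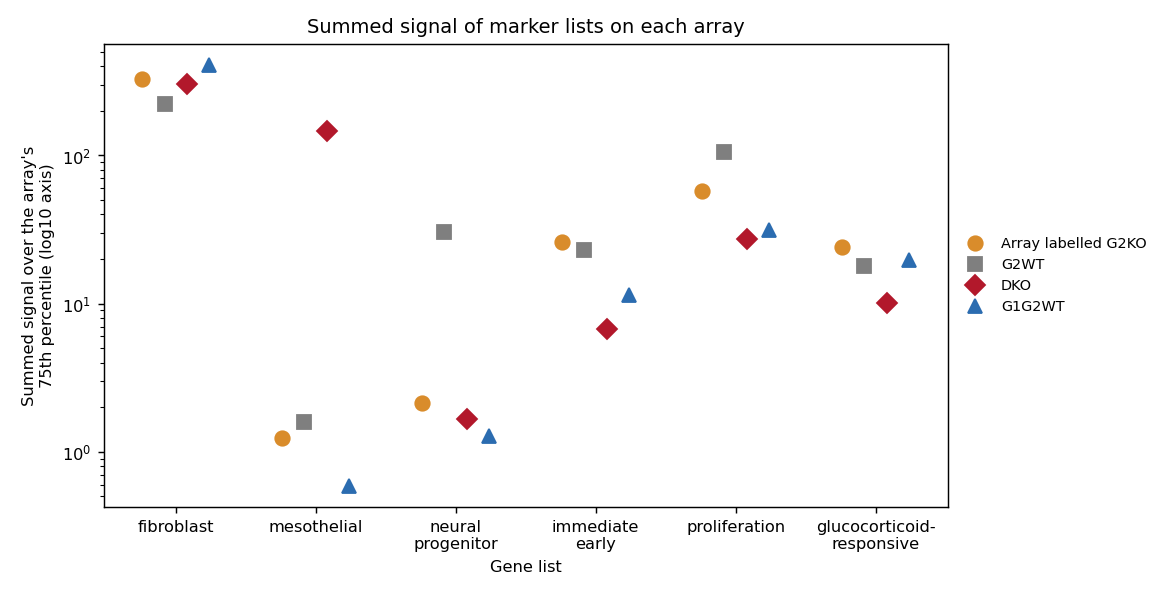
Summed signal over the array's 75th percentile on a log10 axis for 6 gene lists, with 1 point for each array. DKO stands apart in mesothelial genes, at 146. The array labelled G2WT stands apart in the neural progenitor sum, at 30.5 and mostly from Nes, and in proliferation genes, at 105.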

How the data were processed

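Per the labels, each sample was a single-colour (Cy3) array read with Agilent Feature Extraction, given as version 10.5.1.1 in the submitters' processing notes and as 10.7.3.1 in the file headers. The deposited values used are the processed signal intensity of each spot, already background-subtracted by the software; the deposited series table holds the same intensity. All 4 arrays lay on 1 slide, so slide could not be tested as a batch.

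The processed signal was divided by the 75th percentile over all non-control spots of its array. Spots flagged as outliers were left out, spots of a probe were averaged on the log2 scale, and no spot was saturated. Between 64.98% and 72.21% of probes were well above background, and these 4 arrays limit the precision. A gene was represented by its probe of highest mean signal, and its other probe is given too. A probe entered a comparison when well above background on at least 1 of both arrays. A dim side was set to the lowest signal called well above background on that array, which makes the ratio a bound. At least 2-fold was the threshold, and no p-value was computed. The computation was tested on simulated data.

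Alternatives were thresholds of 1.5-fold and 4-fold, scaling to the median, quantile normalization, no scaling, normexp (limma 3.58.1, R 4.3.3, offset 50), other filters, the median over probes, and the other or both control arrays. Python 3.11.15, numpy 2.4.6 and pandas 2.3.3 were used.

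Named are the 10 genes, members of the wider list and of the other lists that passed 2-fold in a knockout against its control, the targeted and sex-linked genes that check the labels, markers of cell types and the 5 genes nearest in pattern to the clock gene of widest range; the remaining genes were named after their values were seen. The clock genes and all lists were chosen with earlier results of these data known. A further gene of the wider list is not reported here. Probe positions are those of the array files (mm9), and promoters and their positions are from RefSeq (GRCm38.p6).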

Additional observations from a re-analysis of the deposited data

How the results depend on the processing

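No paired analysis was possible because each group has 1 array, and no array could be left out for the same reason. All 210 clock gene ratios recomputed under other scalings, backgrounds, filters and probe choices moved by less than the SD between the control arrays, 1.01. This margin is wide and shows little about robustness, since Cry1 in DKO stayed within it while going from -1.34 to -0.66 under normexp. No called ratio changed sign in any alternative. Of 10 ratios past 2-fold, 5 stayed past it under those alternatives: Arntl (-1.73 to -1.56), Nr1d1 (-2.12 to -1.82) and Dbp (-1.52 to -1.31) in DKO, Dbp on the array labelled G2KO (-2.79 to -2.26) and Dbp between the controls (-1.49 to -1.06). Clock in DKO was short of 2-fold under quantile normalization and normexp. Of 106 recomputed counts, 76 stayed within 1.5 times. In the order array labelled G2KO, DKO, between controls, the clock genes past the threshold were 5, 8 and 5 at 1.5-fold and 1, 1 and 0 at 4-fold. Under normexp 1 and 3 were past it in the knockouts, and 1 was between the controls with scaling to the median. The wider list had 2, 2 and 2 at 4-fold, 11 at 1.5-fold on the array labelled G2KO, and 1 and 10 for the knockouts against the other control. All probes past the threshold were 10506, 10957 and 11234 at 1.5-fold, 1555, 2246 and 1981 at 4-fold and 2759, 3697 and 3889 under normexp, beside 4769, 5769 and 5954. Without filter and floor they were 7266 and 8717 in the knockouts. On the array labelled G2KO they were 3085 among probes well above background everywhere, 2375 against the other control and 1905 against the mean of both. The count of clock genes for which the array labelled G2WT lay 2-fold apart from the others, an alternative chosen after seeing the data, was 2 without scaling and 1 with it, and that for DKO was 3 with scaling to the median and 2 otherwise. Without scaling, the median of all probes was 0.34 for the array labelled G2KO (-0.16 scaled) and 0.17 between the controls (-0.08 scaled), with 83.7% (51.2% scaled) and 69.7% (54.4% scaled) of calls higher; scaling to the median gave -0.26 and 40.8% between the controls. The causes of these changes were not tested. Signals of Per2, Per3 and Cry1 lay within 10 times the lowest signal called well above background, which limits their ratios.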
